A study of Rattus norvegicus with 32 samples.

Results

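The nuclear-encoded subunits of the mitochondrial respiratory chain and ATP synthase were examined in gastrocnemius muscle of UCP1 knockout and control rats kept at room temperature or in the cold. The members were taken by symbol from the deposited gene table: the Nduf subunits of complex I with the letters a, b, c, s or v, Sdha to Sdhd, the Uqcr genes, Cyc1, Cycs, the Cox4 to Cox8 genes and the Atp5 genes. This gave 84 of 12901 genes, of which 81 passed the filter on low counts and were tested among 11594 genes. Complex I held 34 members, complex II 4, complex III 10, complex IV 18 and complex V 17, and cytochrome c (Cycs) stood alone. Ndufa4 and Ndufa4l2 were placed with complex IV, and the ATP synthase inhibitor Atp5if1 with complex V. The members without a test were Cycs, with 0 to 12 counts per library, Ndufa4l2, with 0 to 10, and Cox6b2, with 0 to 20. Some widely known subunits, such as Cox7a1 and Cox7a2, were not analysed here.

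The 32 libraries came from male rats 20 weeks of age, chow-fed per the series title. Controls without cold exposure gave 7 libraries (control_RT) and controls kept 2 weeks at 4 °C another 7 (control_4C). UCP1 knockouts gave 9 libraries at room temperature (KO_RT) and 9 after the same 2 weeks of cold (KO_4C). The treatment protocol calls the controls wild-type, neither strain nor knockout allele is given in the sources used here, and no label tells whether the temperatures share animals. The p-values therefore measure the spread between these libraries. Ucp1 was not analysed here, and the genotype labels therefore lack a check from the targeted gene. KO_RT libraries are named by the number of their column (KO8 to KO17), since titles and descriptions number them differently.

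Complex I passes electrons from NADH to ubiquinone and complex II passes them from succinate to ubiquinone. Complex III moves them on to cytochrome c, and complex IV hands them to oxygen. Complexes I, III and IV pump protons, and complex V uses the proton gradient to make ATP. Every complex except II also contains subunits encoded by mitochondrial DNA, and several complex IV subunits come in a muscle form and a ubiquitous form. UCP1 dissipates the same gradient as heat in brown fat, and skeletal muscle is the main site of shivering.

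Levels are given as CPM, the counts of a gene scaled to a common library size with TMM factors. The libraries read the 3′ ends of transcripts, so CPM were not divided by gene length. Levels are compared within a gene, and ratios and sums of genes are compared only between groups. Library totals ran from 7.28e+06 to 2.58e+07 counts, and the members took 4.77% to 6.26% of them. Each of the 10 muscle fibre markers was present, and their summed CPM averaged 170432 and 137788 in control rats at room temperature and in the cold, and 165308 and 136914 in knockout rats. Changes are log2 differences with their standard error (SE), tested with edgeR's quasi-likelihood test and adjusted by the Benjamini-Hochberg method over all 11594 genes, and "rose" or "fell" is used where the adjusted p was under 0.05. The tissue was sequenced in bulk, so fewer cells of a type and less RNA per cell cannot be told apart.

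Of the libraries, 4 stood apart: control_RT replicates 2 and 3 and the KO_RT libraries KO8 and KO10 had the lowest scores on the first principal component, which held 21.7% of the variance. They were also the lowest of all libraries in the mean log2 CPM of 98 genes chosen, after the data were seen, for being low in KO10 (members were not among them). That index ran from 0.67 to 2.62 in control_RT, from 3.18 to 3.54 in control_4C, from 0.21 to 3.57 in KO_RT and from 2.90 to 3.59 in KO_4C. Summed slow-fibre marker CPM (10 genes, 9 of them higher in the cold in each genotype) averaged 10663 and 18672 in control rats at room temperature and in the cold, and 11151 and 17873 in knockout rats. Both measures are set beside the results they move with.

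In control rats, on the TMM scale, cold was accompanied by rises and falls in separate members rather than by a shift of the whole set. By library total the summed CPM of all members was higher in the cold by 8.10%, with overlap. On that scale the median gene was shifted up by 0.16 too. Of 81 members, 12 rose and 7 fell, which is 23.5% against 20.7% of all genes tested. Over all genes, 12.4% rose and 8.28% fell. The median member changed by -0.03 on the log2 scale, beside 0.03 for all genes, and 59 members (72.8%) stayed within 0.25 of 0, beside 47.9% of all genes. These shares are not matched for abundance. Most members are abundant, and genes of 100 CPM or more varied less between libraries (median SD 0.21 against 0.35 for all genes). Complex IV had 5 members that rose and 1 that fell, with a median of 0.11. Complex I had 3 that rose and 4 that fell (median -0.06), and complex V had 2 of each (median -0.07). In complex II 1 of 4 members rose (median 0.21), and in complex III 1 of 10 rose (median -0.08). Cold and room-temperature libraries did not overlap for 8 members, 4 higher and 4 lower, a state reached by 5.75% of all genes in this comparison.

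**Figure D1:**
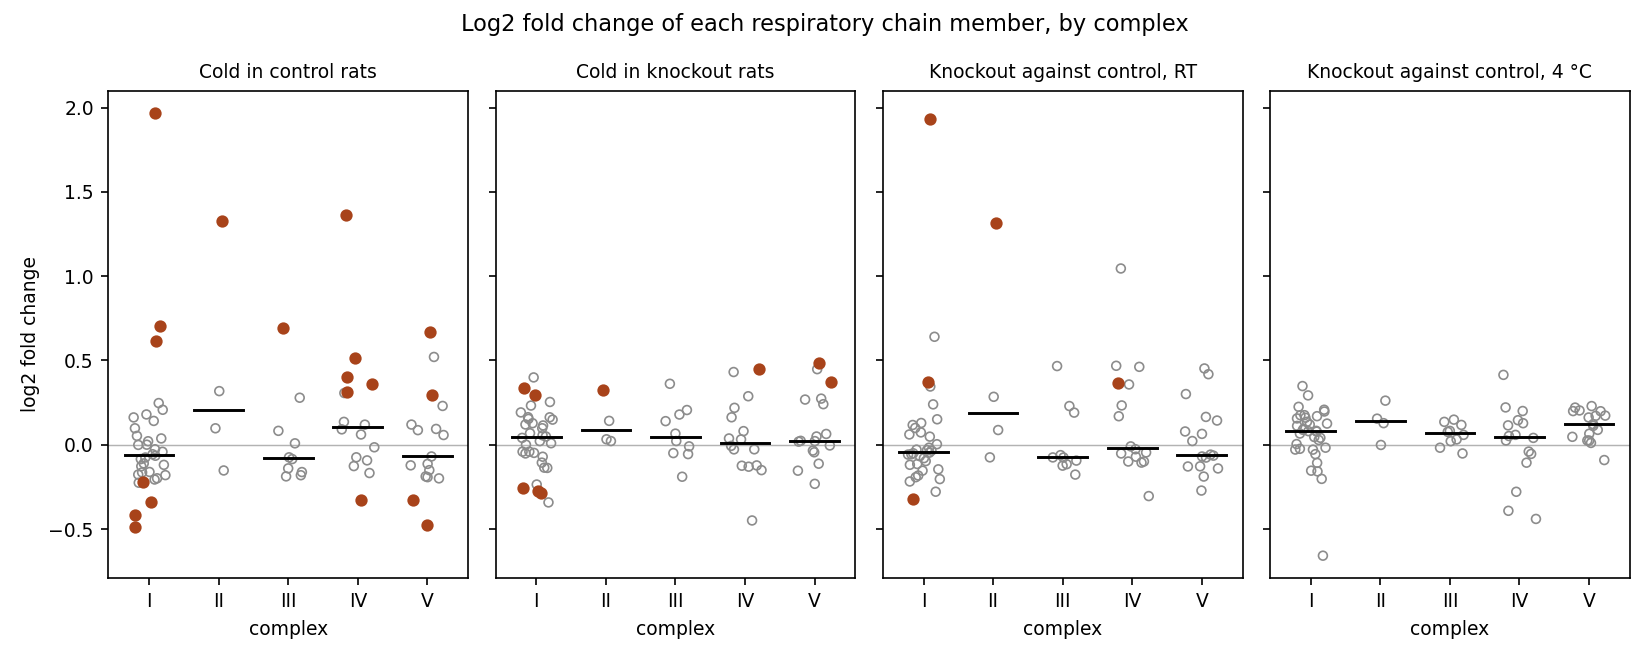
Log2 change of each tested member (vertical axis) in the comparisons of the study, by complex (horizontal axis). Each point is 1 gene, and filled colours mark members past an adjusted p of 0.05. In cold control rats Ndufb6, Cox7c and Sdhd lie above 1 while most members lie near 0, and in cold knockout rats no member reaches 0.50 in either direction.

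Ndufb6, an accessory subunit of the membrane arm of complex I, had the largest change. Its CPM ran from 3.17 to 16.6 (median 11.5) in control_RT and from 31.1 to 55.4 (median 41.9) in control_4C, so every cold control library lay above every room-temperature one. The mean went from 10.6 ± 5.05 (SD, n = 7) to 41.8 ± 9.89 CPM (n = 7), a log2 change of 1.97 ± 0.39 (SE; adjusted p = 0.000714). In KO_RT it ran from 5.08 to 65.4 CPM (median 45.8) and in KO_4C from 20.3 to 55.8 (median 37.4). Within KO_RT the low values were those of KO10 (5.08 CPM) and KO8 (11.2 CPM), and the other 7 libraries lay between 30.4 and 65.4, above every control_RT library.

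Sdhd, the small membrane anchor of complex II that helps to hold its heme, followed the same course. It ran from 62.6 to 114 CPM (median 88.0) in control_RT and from 153 to 291 (median 216) in control_4C, again without overlap. The log2 change was 1.33 ± 0.26 (adjusted p = 0.000509). KO_RT spanned 62.8 to 333 CPM (median 242), with KO10 and KO8 the lowest at 62.8 and 99.5, and KO_4C spanned 158 to 326 (median 243). The other anchor, Sdhc, had 346 ± 80.5 CPM in control_RT and 431 ± 31.6 in control_4C, a difference of 0.32 that did not pass (adjusted p = 0.0737). It passed without control_RT replicates 4 or 7 or KO10 (down to 0.0327), and without KO8 and KO10 together (0.0328). With the replicate number as a block it passed too (0.0389). The catalytic flavoprotein Sdha (174 and 157 CPM) and the iron-sulfur subunit Sdhb (659 and 706 CPM) did not pass in the fit over all libraries.

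Cox7c, a small structural subunit of complex IV, was the third member with a change above 1. It ran from 276 to 892 CPM (median 589) in control_RT and from 1211 to 1722 (median 1476) in control_4C, without overlap. The log2 change was 1.36 ± 0.32 (adjusted p = 0.00326). KO_RT held both the lowest value of any library, 241 CPM in KO10, and values up to 1897, and KO_4C ran from 1039 to 2626. The 70 bases before the annotated starts of these 3 genes, the members that rose most, are shown from RefSeq (GRCr8, minus strand in each case). Capitals would mark a match to any of the 5 motifs searched, described with the promoters, and none occurred in these stretches.
Ndufb6 (chr5:60206153-60206222): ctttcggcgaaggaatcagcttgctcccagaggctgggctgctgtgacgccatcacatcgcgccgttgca
Sdhd (chr8:59850642-59850711): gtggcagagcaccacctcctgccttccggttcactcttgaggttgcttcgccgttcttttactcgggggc
Cox7c (chr2:18579171-18579240): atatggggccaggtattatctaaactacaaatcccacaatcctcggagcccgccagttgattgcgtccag

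**Figure D2:**
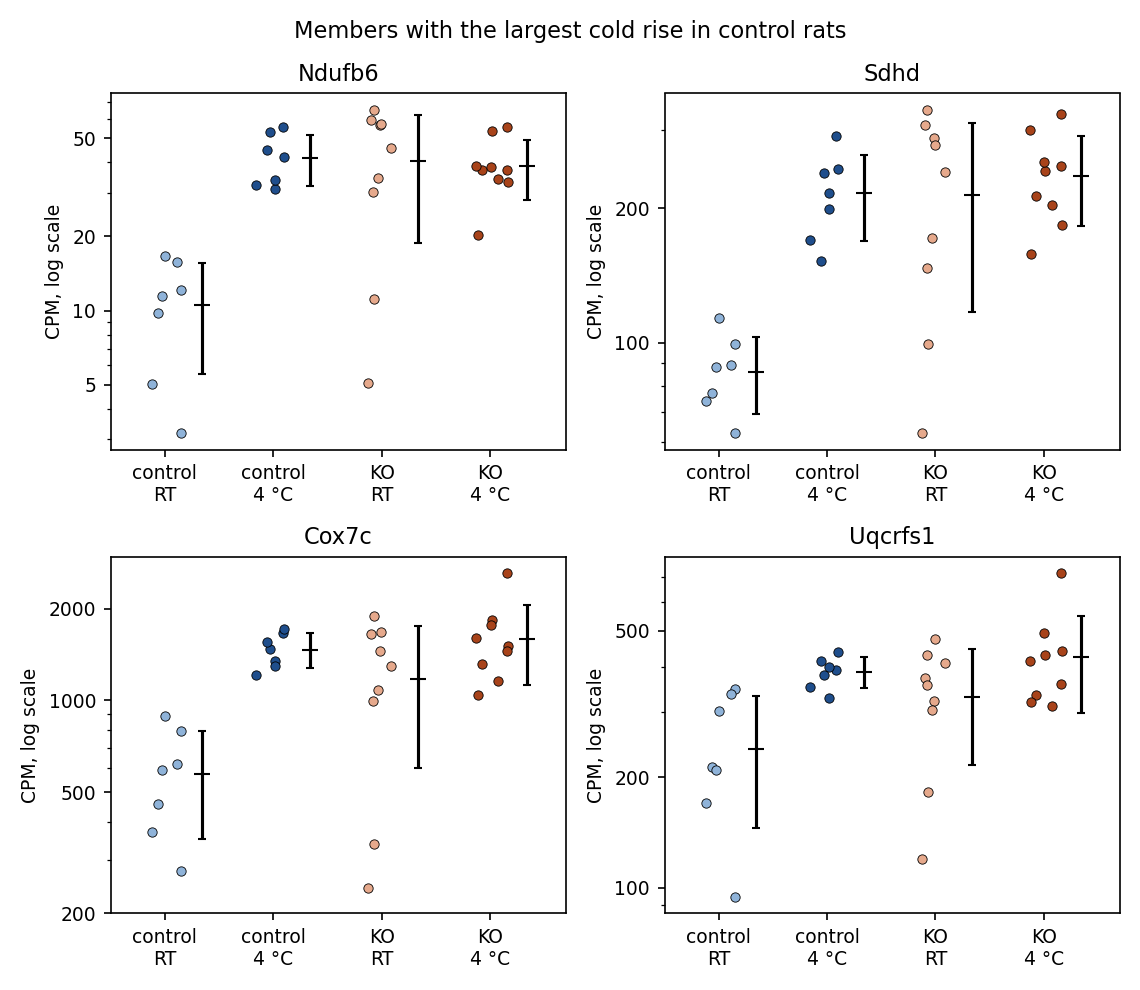
CPM of Ndufb6, Sdhd, Cox7c and Uqcrfs1 in each library (vertical axis, log scale) by group (horizontal axis). Points are libraries, and bars give the mean and SD. Ndufb6, Sdhd and Cox7c are separated between the control groups, Uqcrfs1 overlaps, and the lowest KO_RT points in each panel are KO8 and KO10.

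The remaining members that rose in cold control rats did so by less than 0.75 on the log2 scale. Cox6a1, the ubiquitous form of a complex IV subunit, rose with little spread: 85.5 to 98.7 CPM in control_RT against 105 to 129 in control_4C, a change of 0.36 ± 0.07 (adjusted p = 0.00025). The groups did not overlap. Uqcrfs1, the Rieske iron-sulfur protein of complex III, ran from 94.5 to 347 CPM (median 213) and from 328 to 439 (median 392), a change of 0.69 ± 0.25 (adjusted p = 0.0468). These groups overlapped through control_RT replicates 4 and 7. In complex I, Ndufa12 went from 5.40 to 8.82 CPM (0.71, adjusted p = 0.0205) and Ndufs5 from 5.07 to 7.80 (0.62, adjusted p = 0.028), both at low depth. In complex IV, Cox7a2l2 rose by 0.51 ± 0.13 (59.9 to 85.4 CPM), Cox7b by 0.40 ± 0.14 (414 to 546 CPM) and Cox8a by 0.31 ± 0.11 (96.8 to 120 CPM). In complex V, Atp5md, listed under the symbol of the DAPIT subunit, rose by 0.67 ± 0.20 (41.4 to 66.1 CPM), and Atp5if1, which blocks ATP hydrolysis by complex V, rose by 0.30 ± 0.10 (150 to 185 CPM). The gene identifiers listed for Ndufs5 and Atp5md belong to pseudogenes in the reference annotation, so their reads may come from near-identical copies.

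The members that fell in cold control rats included core parts of complex I. Ndufs7 and Ndufs8, iron-sulfur subunits next to the ubiquinone site, ran from 440 to 590 CPM (median 523) and from 245 to 308 (median 276) in control_RT. In control_4C they ran from 314 to 430 (median 349) and from 181 to 228 (median 200), below every room-temperature library. The fall of Ndufs7 was -0.49 ± 0.09 in log2 (adjusted p = 0.000249) and that of Ndufs8 -0.41 ± 0.08 (adjusted p = 0.000294). Ndufa9, an accessory subunit near the same site, went from 364 to 445 CPM (median 410) down to 291 to 362 (median 304), a fall by 0.34 ± 0.08 without overlap (adjusted p = 0.00328). Ndufv1, which binds NADH and FMN, had 555 and 475 CPM (adjusted p = 0.0996). It passed without control_RT replicate 4 or control_4C replicate 5 (down to 0.0461), and without KO8 and KO10 together (0.0405). Ndufs1, the largest core subunit, had 40.2 and 47.7 CPM (adjusted p = 0.115, and 0.0457 without KO8 and KO10 together). In complex V, Atp5f1e, the epsilon subunit of the central stalk, ran from 1458 to 1865 CPM (median 1707) and from 990 to 1425 (median 1211), a fall by 0.48 ± 0.09 without overlap (adjusted p = 0.000401). Atp5f1c, the gamma subunit that turns inside the catalytic head, fell by 0.33 ± 0.09 (1018 to 812 CPM, adjusted p = 0.00805). In complex IV, Cox8b, the heart and muscle form of subunit 8, fell by 0.33 ± 0.09 (1231 to 980 CPM, adjusted p = 0.012).

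**Figure D3:**
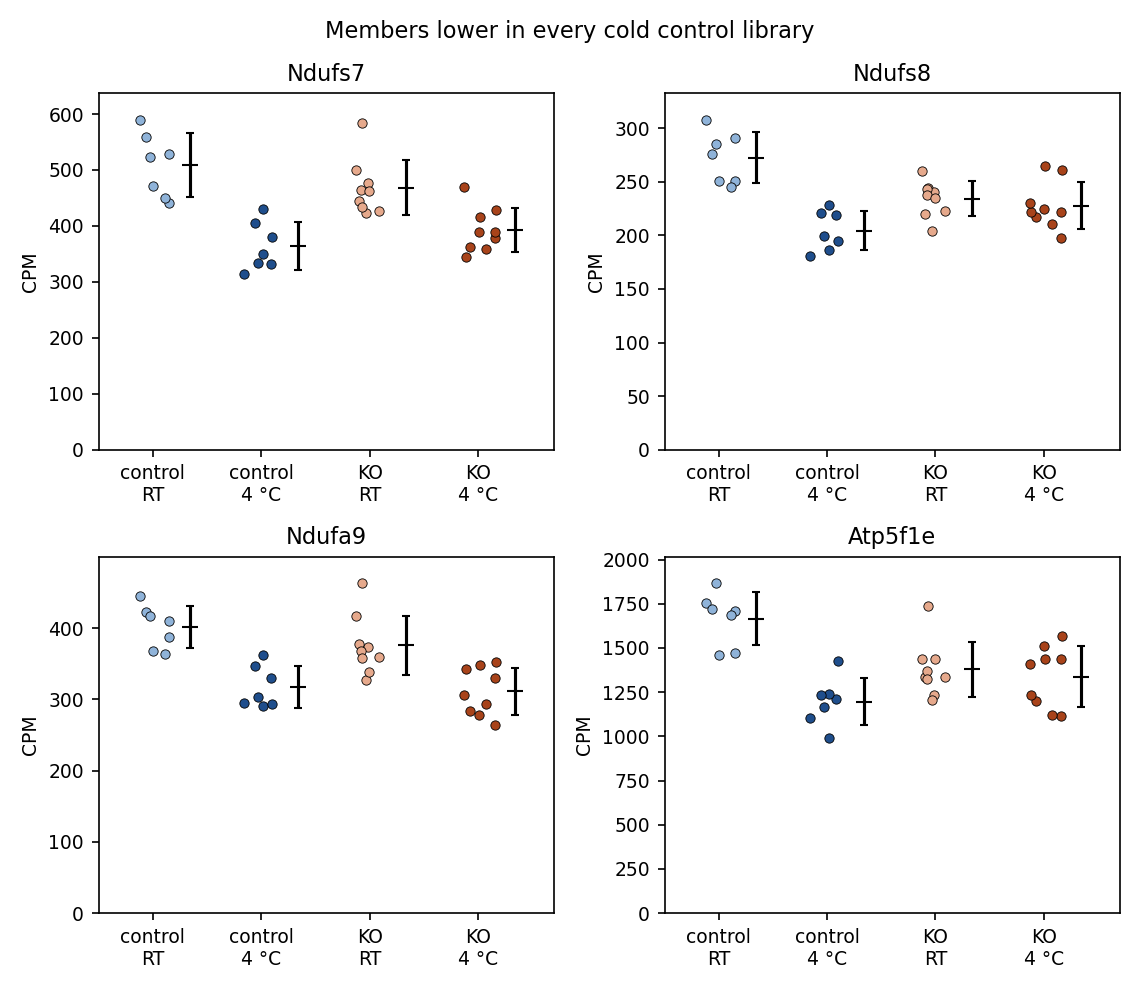
CPM of Ndufs7, Ndufs8, Ndufa9 and Atp5f1e in each library (vertical axis, from 0) by group (horizontal axis). Points are libraries, and bars give the mean and SD. For each gene all 7 cold control libraries lie below all 7 room-temperature control libraries, while the knockout groups overlap.

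Some of the 19 calls in control rats were lost when a single library was left out. Uqcrfs1 lost its call when any 1 of 18 libraries was left out (control_RT replicates 2, 3, 5 and 6, each control_4C library, KO_RT libraries KO11, KO13 and KO14, and KO_4C replicates 2, 4, 8 and 9), with adjusted p up to 0.0960. Cox8a lost it for 18 libraries too (control_RT replicates 2, 3, 6 and 7, control_4C replicates 1 and 3 to 6, KO_RT libraries KO9 and KO13 to KO17, and KO_4C replicates 1, 6 and 7), up to 0.154. Cox7b lost it without control_RT replicates 1, 2 or 3 or control_4C replicates 4 to 7 (up to 0.0917), and Atp5if1 without control_RT replicates 2 or 4 or control_4C replicates 1, 2, 6 or 7 (up to 0.0850). Ndufs5 lost it without control_RT replicates 2, 3, 5 or 7 or control_4C replicates 1 or 2 (up to 0.0639), and Ndufa12 without control_RT replicate 3 or control_4C replicates 5 or 6 (up to 0.0642). Ndufb6, Sdhd, Cox7c, Cox6a1, Cox7a2l2, Atp5md, Ndufs7, Ndufs8, Ndufa9, Cox8b, Atp5f1c and Atp5f1e passed whichever single library was left out. Without the 4 libraries that stood apart, 13 of the 19 calls remained, with Ndufb6 at 1.65, Sdhd at 1.20 and Cox7c at 1.12. With the low-transcript index as a covariate 1 call remained, Cox6a1 (0.30, adjusted p = 0.0329), while Ndufb6 was at 0.43 (adjusted p = 0.184), Sdhd at 0.38 (0.212), Cox7c at 0.12 (0.73) and Uqcrfs1 at -0.14 (0.724). Of the members that fell, Atp5f1c was at -0.36 (0.0589), Atp5f1e at -0.34 (0.0825), Ndufs7 at -0.32 (0.0729), Ndufs8 at -0.29 (0.0628), Cox8b at -0.24 (0.299) and Ndufa9 at -0.18 (0.337). The index did not overlap between control_RT and control_4C, so in control rats the index and the cold cannot be told apart. With the slow-fibre level as a covariate 5 of the 19 calls remained: Cox6a1, Ndufs7, Ndufs8, Atp5f1c and Atp5f1e. This covariate was the mean log2 CPM of the 10 slow-fibre genes, not their summed CPM, and its overlap between groups is not given here. The summed CPM was at most 13236 in control_RT and at least 13417 in control_4C, without overlap. Of the 10 slow-fibre genes 9 themselves rose, so this fit cannot tell the slow-fibre level and the cold apart in control rats.

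In knockout rats 9 members passed in the cold, each with a change under 0.50 in size. Of 81 members, 6 rose and 3 fell (11.1%, beside 13.8% of all genes, of which 7.49% rose and 6.28% fell), and the median was 0.03 beside 0.01. Complex I had 2 that rose and 3 that fell, complexes II and IV 1 that rose each, complex V 2 that rose, and complex III none by edgeR, with 1 member at an unadjusted p under 0.05. Libraries did not overlap for 2 members, both higher, a state reached by 1.66% of all genes. Cox6a1 was the clearest: 76.9 to 94.5 CPM (median 88.8) in KO_RT and 109 to 138 (median 120) in KO_4C, a change of 0.45 ± 0.06 (adjusted p = 1.49e-06). Ndufs4, an accessory subunit of the NADH-binding arm, was the other, with 160 to 182 CPM (median 176) in KO_RT, 190 to 241 (median 219) in KO_4C and a change of 0.29 ± 0.06 (adjusted p = 0.001). In control rats Ndufs4 had 193 and 196 CPM.

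Atp5if1 rose in knockout rats by 0.48 ± 0.09 (143 to 200 CPM, adjusted p = 0.000179), and Atp5mg, the membrane subunit g of complex V, rose by 0.37 ± 0.10 (1550 to 2005 CPM, adjusted p = 0.0078). Sdhb rose by 0.33 ± 0.08 (626 to 786 CPM, adjusted p = 0.00513), and Ndufb10 of the complex I membrane arm by 0.33 ± 0.08 (239 to 301 CPM, adjusted p = 0.00355). Ndufa9 fell by 0.27 ± 0.07 (376 to 311 CPM, adjusted p = 0.00978), Ndufs7 by 0.25 ± 0.08 (469 to 393 CPM, adjusted p = 0.0236) and Ndufb4, a membrane-arm subunit, by 0.29 ± 0.10 (61.5 to 50.4 CPM, adjusted p = 0.0431). Cox6a1, Atp5if1, Ndufa9 and Ndufs7 thus passed in the same direction in both genotypes. Ndufb6 (-0.07), Sdhd (0.14) and Cox7c (0.43) did not pass in knockout rats. Ndufb4 lost its call without KO_RT libraries KO9, KO11 or KO13 or KO_4C replicates 1, 5, 6 or 8 (adjusted p up to 0.0842). Ndufs7 and Ndufa9 lost theirs without KO8 and KO10 together (adjusted p = 0.115 and 0.0654). With the slow-fibre level as a covariate only Cox6a1 passed (0.41, adjusted p = 0.00261). In that fit the falls were at -0.29 (Ndufa9), -0.32 (Ndufb4) and -0.25 (Ndufs7). The other rises were at 0.14 (Sdhb), 0.20 (Atp5mg), 0.21 (Ndufb10), 0.25 (Ndufs4) and 0.28 (Atp5if1). Of the 10 slow-fibre genes 9 rose in cold knockout rats too, so this covariate moves with the cold. Why the values differ between members was not tested. With the low-transcript index 8 of the 9 calls remained, all but Ndufs7 (adjusted p = 0.0662).

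At room temperature, knockout and control muscle differed in 5 members, 4 higher and 1 lower in the knockout (6.17%, beside 2.61% of all genes). Over all genes, 2.35% were higher and 0.259% lower. Ndufb6 averaged 40.6 ± 21.8 CPM (n = 9) in KO_RT against 10.6 ± 5.05 in control_RT, a difference of 1.93 ± 0.38 (adjusted p = 0.00936). Sdhd averaged 214 ± 96.9 against 86.2 ± 16.9 CPM, a difference of 1.31 ± 0.24 (adjusted p = 0.00936). Both groups overlapped for these genes through KO8 and KO10. Cox4i1, the common form of the largest nuclear-encoded complex IV subunit, ran from 301 to 448 CPM in control_RT and from 462 to 712 in KO_RT, higher in the knockout by 0.36 ± 0.10 (adjusted p = 0.0372). It was the 1 member whose groups did not overlap here, a state reached by 0.104% of all genes. Ndufb4 was higher by 0.37 ± 0.10 (47.5 and 61.5 CPM, adjusted p = 0.043), and Ndufb8, another membrane-arm subunit, was lower by 0.32 ± 0.08 (1068 and 855 CPM, log2 difference -0.32, adjusted p = 0.0206). Cox7c had 572 and 1180 CPM and missed the threshold (1.05 ± 0.31, adjusted p = 0.0594), which it passed without control_RT replicate 1, KO8 or KO10 (down to 0.00481).

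These calls moved with single libraries. Without KO8 there were 11 member calls, without KO10 there were 13, and without both 27. Without control_RT replicate 3 there were 2, and 3 without any 1 of control_RT replicates 2, 5, 6 or 7, control_4C replicates 5 or 6, or KO_RT libraries KO9, KO13, KO15, KO16 or KO17. Cox4i1 lost its call for 15 libraries (each control_RT library, control_4C replicates 5 and 6, KO9, KO13, KO15, KO16, KO17 and KO_4C replicate 6, adjusted p up to 0.104), Ndufb4 for 18 (control_RT replicates 2, 3 and 5 to 7, control_4C replicates 1 and 4 to 7, KO9, KO11, KO13 to KO17 and KO_4C replicate 1, up to 0.136) and Ndufb8 without control_RT replicate 3 (0.0648). Ndufb6 and Sdhd passed without any single library. No member passed when only these 2 groups entered the fit, where edgeR called 0 of all genes and 19 members had an unadjusted p under 0.05. The differences kept their size in that fit (Ndufb6 1.93, Sdhd 1.31, Ndufb4 0.36, Cox4i1 0.35 and Ndufb8 -0.33, adjusted p of 0.0958 to 0.144). With the low-transcript index as a covariate none passed. Ndufb6 was at 0.68 (adjusted p = 0.0914), Sdhd at 0.57 (0.13) and Ndufb4 at 0.25 (0.369), while Cox4i1 at 0.41 (0.16) and Ndufb8 at -0.31 (0.168) kept their size. The index was at most 2.62 in control_RT, and from 3.09 to 3.57 in the KO_RT libraries other than KO8 (1.41) and KO10 (0.21). Apart from those KO_RT libraries it was separated between the genotypes, so this fit can hardly tell the index and the genotype apart.

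At 4 °C no member differed between the genotypes by edgeR, where 0.0518% of all genes passed. DESeq2 called 2 members, and 14 had an unadjusted p under 0.05. The member median was 0.08, beside 0.02 for all genes. Above 0 lay 61 of 81 members, including 16 of 17 in complex V (median 0.12), beside 6180 of 11594 genes tested. These values depend on the scale, since CPM by library total shifted the median gene by -0.05 here. No member was without overlap, beside 0.0949% of all genes. The members nearest the threshold were Cox8a, with 120 ± 25.2 CPM in control_4C and 91.7 ± 9.52 in KO_4C (-0.39, adjusted p = 0.0586), and Sdha, with 157 ± 16.8 and 188 ± 17.1 (0.26, adjusted p = 0.0672). Among all genes the split of calls was 4 higher and 2 lower with TMM factors, and 11 higher and 110 lower with RLE factors, under which 1 member passed. Cox8a passed without any 1 of 9 libraries (control_RT replicates 4 and 6, control_4C replicates 1, 4, 5 and 7, KO8, KO10 and KO16, down to 0.00966), and Sdha without control_4C replicates 5 or 7 (down to 0.0341). Leaving out control_4C replicate 7 gave 3 member calls and control_4C replicate 5 gave 2. Leaving out any 1 of control_RT replicates 4 or 6, control_4C replicates 1 or 4, or KO_RT libraries KO8, KO10 or KO16 gave 1.

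The cold change was tested for a difference between the genotypes. No member passed by edgeR, where 0.0259% of all genes did. DESeq2 called 4 (Ndufb6, Sdhd, Cox7a2l2 and Ndufs8), and 19 had an unadjusted p under 0.05. The knockout cold change minus the control one was -2.04 for Ndufb6 (adjusted p = 0.0933), -1.19 for Sdhd (0.134), -0.64 for Cox7a2l2 (0.126), 0.37 for Ndufs8 (0.118) and 0.43 for Atp5f1e (0.13). For Ndufb6 and Sdhd, KO8 and KO10 lay within the control_RT range, and the other 7 KO_RT libraries above it. Without KO8 there were 4 member calls, without KO10 there were 5, and without both 10, with Ndufb6 at -2.32 (adjusted p = 0.000348), Sdhd at -1.40 (0.000857) and Cox7c at -1.20 (0.01). Without all 4 libraries that stood apart 5 members passed: Ndufb6 (-2.02), Sdhd (-1.30), Cox7a2l2 (-0.70), Cox7c (-0.97) and Atp5f1e (0.49). With the low-transcript index as a covariate Ndufb6 was at -0.71 (adjusted p = 0.267) and Sdhd at -0.39 (0.446). These libraries were picked out after the data were seen, and their part in the result was not tested beyond these values.

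The ratio of the ubiquitous to the muscle form of a complex IV subunit was separated between temperatures for Cox6a1 and Cox6a2, and overlapped for Cox8a and Cox8b. Cox6a1 as a percentage of its muscle form Cox6a2 was 5.99% to 7.58% in control_RT (mean 6.95% ± 0.49) and 8.94% to 11.3% in control_4C (10.1% ± 0.99). In knockout rats it was 6.63% to 7.72% (7.19% ± 0.38) at room temperature and 9.74% to 12.1% (10.7% ± 0.76) in the cold. The temperatures were separated in both genotypes. Cox6a2 itself had 1316, 1172, 1229 and 1129 CPM in control_RT, control_4C, KO_RT and KO_4C, with cold changes of -0.17 and -0.12 that did not pass by edgeR. DESeq2 called both (-0.18, adjusted p = 0.0147, and -0.14, adjusted p = 0.0419), and the change in control rats also passed in edgeR without any 1 of control_RT replicate 4, control_4C replicates 4 or 5, KO8, KO13, KO17 or KO_4C replicate 7 (adjusted p down to 0.0316). Cox8a as a percentage of Cox8b went from 7.99% ± 2.01 to 12.6% ± 3.52 in control rats, with overlap (5.43% to 11.2% and 7.54% to 19.0%), and was 8.06% and 8.75% in knockout rats. Cox4i2, the form known from lung, was at 0.450% to 0.509% of Cox4i1 in every group mean. The ratios have no test of their own. The 70 bases before the starts of the ubiquitous Cox8a and the muscle Cox8b are shown (RefSeq, GRCr8, minus strand). Capitals mark 2 ETS matches on the opposite strand in Cox8a and 1 SP1 match on the opposite strand in Cox8b. Whether these matches bear on the level of either gene was not tested.
Cox8a (chr1:213833624-213833693): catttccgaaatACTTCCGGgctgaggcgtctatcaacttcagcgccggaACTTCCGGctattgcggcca
Cox8b (chr1:205408274-205408343): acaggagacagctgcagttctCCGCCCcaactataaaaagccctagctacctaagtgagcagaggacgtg

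In complex V the level of the inhibitor was compared with that of the catalytic beta subunit. Atp5if1 as a percentage of Atp5f1b went from 2.99% ± 0.33 (2.59% to 3.62%) to 4.27% ± 0.72 (3.39% to 5.38%) in control rats and from 2.94% ± 0.28 (2.57% to 3.41%) to 3.99% ± 0.48 (3.28% to 4.59%) in knockout rats, with overlap in both. Atp5f1b had 5053, 4401, 4832 and 5052 CPM in the order control_RT, control_4C, KO_RT and KO_4C, and passed in no comparison. The genes for subunit c, which forms the rotor ring, encode the same mature protein. Atp5mc1 as a percentage of Atp5mc3 was 80.3% ± 16.7 and 64.6% ± 8.33 in control rats and 89.2% ± 30.0 and 64.5% ± 18 in knockout rats, with wide overlap, and none of the 3 genes passed in the fit over all libraries. Atp5mc2 passed in cold control rats without KO8 (adjusted p = 0.024), and Atp5mc3 in cold knockout rats without KO_4C replicate 3 (adjusted p = 0.0451).

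**Figure D4:**
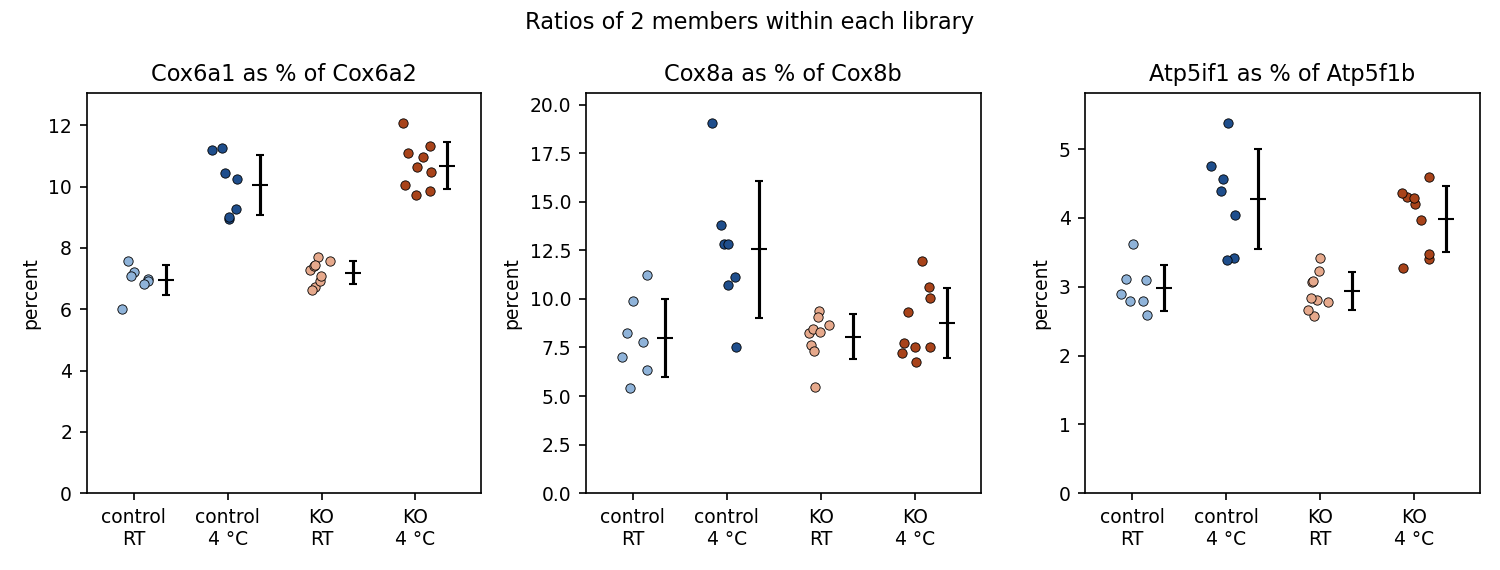
Ratio of paired genes in each library, as a percentage of the second gene (vertical axis, from 0), by group (horizontal axis), with points for libraries and bars for the mean and SD. Cox6a1 over Cox6a2 is separated between temperatures in both genotypes, Atp5if1 over Atp5f1b and Cox8a over Cox8b overlap.

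Summed over a complex, the levels overlapped between temperatures on the TMM scale. In control rats the sum went from 1265 ± 114 to 1509 ± 153 CPM for complex II and from 9874 ± 769 to 10920 ± 1130 CPM for complex IV. Complex I went from 14597 ± 658 to 13610 ± 1198 CPM, complex III from 6400 to 6107 and complex V from 21879 ± 1078 to 20413 ± 2247. All 5 sums overlapped between the temperatures with TMM factors, while complexes II and IV did not overlap by library total. The signs for I, III and V depend on the scale: with TMM they changed by -6.76%, -4.58% and -6.70%, and with CPM by library total by 3.64%, 6.09% and 3.64%. Complexes II and IV were higher on both, by 19.3% and 10.6% with TMM and by 32.4% and 22.8% by library total. In knockout rats complex I went from 13850 to 14620 CPM, II from 1446 to 1640, III from 6130 to 6377, IV from 10795 to 11636 and V from 21399 to 22237, each with overlap. By library total these sums were higher in the cold by 12.2%, 20.4%, 10.7%, 14% and 10.7%, and that of complex I did not overlap.

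The shares of each complex in the members' summed CPM do not depend on the library scale. Complex II took 2.06% to 2.60% in control_RT and 2.80% to 2.98% in control_4C, and complex IV took 16.7% to 19.4% (mean 18.3%) and 19.4% to 21.9% (mean 20.8%), without overlap in either case. For complex IV the groups almost touched, at 19.41% in control_RT and 19.45% in control_4C. Complex V went from a mean of 40.5% to 38.8% and complex I from 27.0% to 25.9%. In knockout rats complex II went from 2.70% to 2.90%, complex IV from 20.2% to 20.5% and complex V from 39.8% to 39.4%, all overlapping. Sdhd and Cox7c enter the shares of complexes II and IV, so these repeat the gene results. Subunits of the same complexes encoded by mitochondrial DNA took 11% of counts in control_RT and 8.56% in control_4C together with the other mitochondrial transcripts, and 11% and 9.75% in knockout rats.

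**Figure D5:**
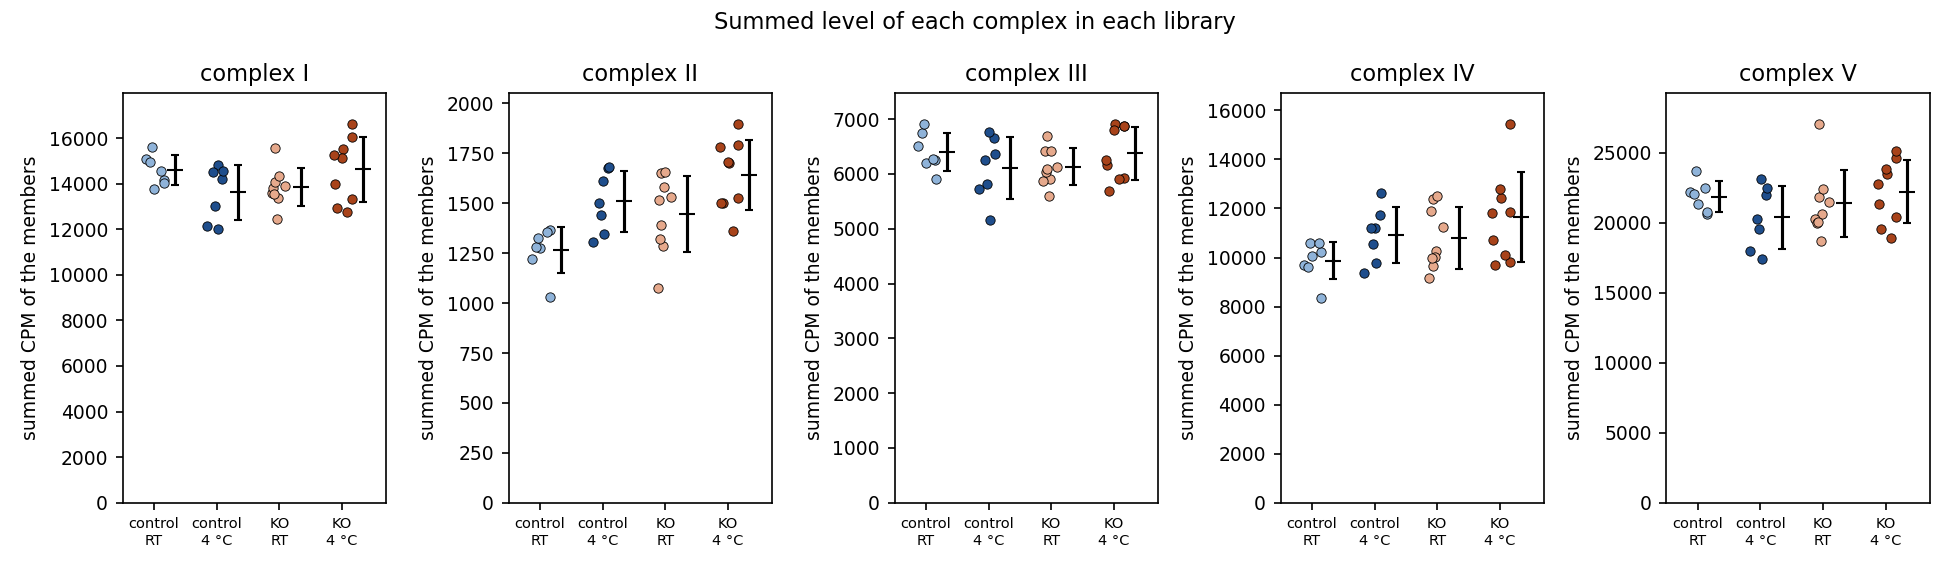
Summed CPM of the tested and untested members of each complex in each library (vertical axis, from 0) by group (horizontal axis), with points for libraries and bars for the mean and SD. The groups overlap in every panel, and the highest complex V point is KO8 at 27078 CPM.

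Members varied less between libraries of a group than most genes did. The pooled within-group SD of log2 CPM had a median of 0.20 over members and 0.35 over all genes tested. Among genes of 100 CPM or more it was 0.18 for 65 members and 0.21 for 1174 genes. The widest members were Ndufb6 (0.83), Cox5a (0.70), Cox7c (0.67), 1 of the 2 Ndufv3 genes (0.55), Sdhd (0.52), Cox4i2 (0.51) and Uqcrfs1 (0.51), and the tightest were Cox6a1 and Cox6a2 (0.09 each) and Ndufs4 (0.10). Cox5a, a subunit at the matrix face of complex IV, was wide in every group: 303 to 1186 CPM (median 735) in control_RT, 324 to 1127 (median 824) in control_4C, 387 to 1177 (median 1068) in KO_RT and 362 to 1266 (median 478) in KO_4C. Its groups overlapped fully, and it passed in no comparison (adjusted p of 0.378 or more).

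Other core members were not called in the fit over all libraries. In the order control_RT, control_4C, KO_RT and KO_4C, Cyc1, the cytochrome c1 of complex III, had 575, 507, 509 and 490 CPM. The structural core proteins Uqcrc1 and Uqcrc2 had 716, 649, 657 and 688 CPM and 191, 192, 224 and 196 CPM. Cox5b had 921, 875, 915 and 968 CPM, and Cox7a2l, which takes part in joining complexes III and IV, had 134, 126, 125 and 122. Atp5f1a, the alpha subunit, had 586, 539, 619 and 557 CPM, and Atp5po, which couples the head of complex V to its stalk, had 1323, 1192, 1161 and 1201. Ndufa4, now counted with complex IV, had 711, 879, 799 and 895 CPM, with 0.31 in cold control rats (adjusted p = 0.0591). Some of them passed with fewer libraries. Ndufa4 passed in cold control rats when only the groups compared were fitted (0.29, adjusted p = 0.0225) or without any 1 of control_4C replicate 3, KO8, KO10 or KO16 (adjusted p down to 0.0106). Atp5po was lower in the knockout at room temperature without KO8 (adjusted p = 0.0298). Without KO8 and KO10 together, Ndufa4 (0.28), Uqcrc2 (0.26), Cyc1 (-0.24) and Atp5po (-0.30) passed between the genotypes at room temperature.

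Nuclear subunit genes are known to carry sites for NRF1, ERR, ETS factors such as GABPA, YY1 and SP1 near their starts. Promoters of 300 bases (250 before and 50 after the start, RefSeq, GRCr8) matched 67 of the 84 members. Each motif was searched on both strands without mismatches: NRF1 by its consensus, ERR as TCAAGGTCA, ETS as CCGGAAGT, YY1 as AAGATGGCG and SP1 as GGGCGG. NRF1 matched 11 members (16.4%), beside 4.67% of all 27457 promoters and 9.68% of 9099 promoters of genes in the table, and none of 14 complex IV promoters. YY1 matched 9 (13.4%, beside 1.92% and 3.67%), ETS 8 (11.9%, beside 4.02% and 8.03%) and ERR 2 (2.99%, beside 0.397% and 0.231%). SP1 matched 27 (40.3%, beside 34.7% and 61.3%). A match is a run of letters, not a site shown to be bound. Windows of 3 matches from complexes III and V are shown, with the match in capitals (on the given strand for Uqcrc1 and Atp5pf, on the opposite one for Atp5mc3).
Uqcrc1, NRF1 (chr8:118468144-118468183, plus strand): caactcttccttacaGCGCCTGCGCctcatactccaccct
Atp5pf, YY1 (chr11:37375189-37375227, minus strand): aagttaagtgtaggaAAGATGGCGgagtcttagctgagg
Atp5mc3, ERR (chr3:79220698-79220736, minus strand): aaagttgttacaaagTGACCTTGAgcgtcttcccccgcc

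Counts of calls with and without a match are given as a description. In cold control rats, of 11 members with an NRF1 match 1 rose (Ndufa12) and none fell, with a median of -0.06, beside 8 that rose and 5 that fell among 54 without one (median -0.03). Of 9 members with a YY1 match 2 fell (Ndufs7 and Ndufa9) and none rose, with a median of -0.11. Among 56 tested without one 9 rose and 3 fell (median -0.01). With an ETS match 1 of 8 rose and none fell, and with an SP1 match 4 of 26 rose and 2 fell. In cold knockout rats, Ndufs4 with a YY1 match rose and Ndufs7 and Ndufa9 fell (median 0.07 with a match). Among 56 tested without a YY1 match 4 rose and 1 fell there (median 0.02). The ERR matches were in Sdhd, outside the stretch shown above, and in Atp5mc3 (2879, 3073, 2765 and 3267 CPM in the order used above). No match of these 5 motifs occurred in the promoters of Ndufb6, Cox7c, Ndufs8 or Cox6a2.

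Genes that build or complement the complexes are given by their counts, to be read against the 12.4% and 8.28% of all genes that rose and fell in cold control rats and the 7.49% and 6.28% in cold knockout rats. Of 15 tested complex I assembly factors, none rose and 2 fell in cold control rats (Ndufaf8 by 0.49 and Ndufaf2 by 0.57), and in cold knockout rats Timmdc1 and Tmem186 rose and Ndufaf8 fell by 0.43. Of 21 complex IV assembly factors, 3 rose in cold control rats: Cox17, a copper chaperone, by 1.01 ± 0.29 (adjusted p = 0.0123), Coa5 by 0.77 and Cox18 by 0.57. In cold knockout rats 1 fell, Coa6 (-1.10). Coa5 was also higher by 0.77 in the knockout at room temperature. Of 7 complex III factors, Hccs, which attaches heme to cytochromes c and c1, rose in both genotypes (0.40 and 0.52), and Ttc19 (-0.47) and Uqcc2 (-0.41) fell in control rats. Of 5 complex V factors, Tmem70 rose in knockout rats (0.28). Of 12 coenzyme Q synthesis genes, Coq2 (-0.57) and Coq5 (-0.38) fell in control rats and Coq10a rose in knockout rats (0.29). The 2 complex II factors and the 4 further subunits tested had no call by edgeR.

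Transcripts of mitochondrial DNA fell in the cold: 9 of 12 in control rats (median -0.60) and 6 of 12 in knockout rats (median -0.31), among them Mt-nd5 by 0.79 and 0.58. Of 10 regulators, Esrrg, a nuclear receptor of oxidative muscle, rose by 0.69 in control and 0.70 in knockout rats, Yy1 fell by 0.62 and 0.50, and Esrra rose by 0.36 in control rats. Some markers of other cell types rose beside these changes in control rats, where 12.4% of all genes rose. These were 4 of 7 adipocyte markers (summed means 169 and 321 CPM), 4 of 5 erythroid genes (summed medians 382 and 556 CPM, with 3468 CPM in 1 control_4C library) and 3 of 8 macrophage markers (132 and 176 CPM). Of 7 smooth muscle markers 3 rose, while their summed mean was lower in the cold (4735 and 4343 CPM). Also, 2 of 7 endothelial (232 and 245 CPM) and 1 of 7 fibroblast markers (1135 and 1207 CPM) rose. In knockout rats the adipocyte list had 1 that rose (256 and 350 CPM), the erythroid list 1 (summed medians 322 and 824 CPM), the macrophage and endothelial lists 3 each, smooth muscle 0 by edgeR, and fibroblast 1 that fell. None of the markers found in the table was at 0 in all libraries, and their part in the members' changes was not tested.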

How the data were processed

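Gastrocnemius RNA was sequenced as Lexogen QuantSeq libraries (3′ ends, 500 ng of total RNA, 50 bp forward reads), per the labels' protocols. The authors deposited whole-number counts per Ensembl gene and a normalised signal, which equals each deposited count divided by 1 size factor per library. R 3.4.3, DESeq2 1.18.1 and the build Rnor_6.0 are named in the submitters' processing notes, and which aligner and counter were used is not given in the sources used here. All deposited counts were even (0 odd values), so each read may have been entered as a pair. Halved counts were tried as an alternative. No library duplicated another of its group (smallest chi-square per degree of freedom 6.19).

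The tests used counts, and the normalised signal served the gene names and 1 scale of the sums. Under R 4.3.3 (edgeR 4.0.16, limma 3.58.1), filterByExpr (minimum count 10, smallest group 7) left 11594 of 12901 genes, a robust quasi-likelihood model with TMM factors and 1 mean per group was fitted to the 32 libraries, and p-values were adjusted per comparison over all genes tested at 0.05. The SE divides the absolute log2 change by the root of its F statistic. DESeq2 1.42.0, sva 3.50.0 (1 surrogate variable), RLE factors, no filter, a threshold of 0.01, the replicate number as a block and each library left out were alternatives. The covariates and the groups of libraries left out together were chosen after seeing the data. On data simulated for the cold comparison in control rats (11492 genes), 40.4% of 1.5-fold and 73.5% of 2-fold changes were recovered, with 2.61% false calls. The simulation drew each gene independently, without the differences shared across genes in the libraries that stood apart. Its rates, that of false calls included, need not hold for the real comparison. Even in this simpler setting many changes of 1.5-fold, and some of 2-fold, were missed, so the same can happen here.

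The members, the gene lists and the rule for named genes were chosen with earlier results of these data known. The rule names, per complex, up to 5 members of smallest p in each direction and comparison, the member of highest CPM and a set of core and isoform genes whatever their values. In the other lists at most 3 genes per comparison are named. The symbols Ndufv3, Uqcrb and Cox6b1 each stand for 2 Ensembl genes, counted as separate members, and Uqcrb here means the more abundant one. The identifiers listed for Cycs, Ndufs5 and Atp5md are pseudogenes in the reference table (GRCr8), and those of Atp5f1c and Atp5s carry other symbols there (Taf3 and Dmac2l). The table gave no strand setting, so overlapping genes may share reads. Replicate numbers come from the sample descriptions. The KO_RT columns follow the titles' numbers, some of which are other samples' numbers in the descriptions, so these columns were tied to the group only. 1 member is counted in the totals and not reported here by name.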

Additional observations from a re-analysis of the deposited data

Results flagged for a closer look

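In 26 of 248 sets of values of a group (10.5%), 1 library lay far from the others. The rule passes about 1 in 20 sets of independent, normally distributed values. These sets share genes and libraries and are not on a log scale, so that rate is no baseline for them. The KO_RT library KO8, which stood apart in the whole transcriptome, had 6 of them: the highest Atp5f1e (1738 CPM), Atp5mc1 (3581), Cox4i1 (712), Ndufs7 (584), Ndufv1 (708) and summed complex V (27078 CPM). The KO_RT library KO10, which stood apart too, had the highest Cyc1 (608 CPM) and the lowest Ndufa12 (3.34) and Sdhc (246). KO_4C replicate 7 had the highest Cox7a2l (218 CPM), Cox7c (2626), Sdhc (561) and Uqcrfs1 (717) of its group.

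In control_RT, replicate 7 had the lowest Atp5mc1 (1738 CPM), Cox4i1 (301) and Uqcrc2 (158), replicate 2 the lowest Atp5if1 (119) and Atp5mc3 (2211), replicate 3 the highest Cox6a2 (1537) and replicate 1 the highest Cyc1 (728). Single values elsewhere were low Cox5a in the KO_RT library KO9 (387 CPM), low Cox5b in KO11 (798), high Cox6c in KO17 (3769) and low Ndufb8 in control_4C replicate 7 (744). The ratio of Cox4i2 to Cox4i1 was low in control_4C replicate 5 (0.253%) and KO_4C replicate 1 (0.229%).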

How the results depend on the processing

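Member calls were 19 for cold in control and 9 for cold in knockout rats, 5 for genotype at room temperature, 0 at 4 °C and 0 for the interaction, the order used below. With RLE factors, and with totals free of the 20 most abundant genes, 1 passed at 4 °C. At an adjusted p of 0.01 there were 10 in cold control rats and 2 at room temperature. DESeq2 gave 9 at room temperature, 2 at 4 °C and 4 for the interaction. Fitting the groups compared alone gave 0 at room temperature, and this choice could not be applied to the interaction. The low-transcript index as a covariate gave 1 in cold control rats, 0 at room temperature and 2 at 4 °C, and turned Uqcrfs1 in cold control rats to -0.14. The slow-fibre level gave 6, 1 and, at 4 °C, 2. Leaving out the 4 libraries that stood apart gave 10 at room temperature and 5 for the interaction, and leaving out KO8 and KO10 gave 30, 27, 1 and 10 in cold control rats, at room temperature, at 4 °C and for the interaction. The causes were not tested. Leaving out each library in turn gave ranges of 13 to 23, 8 to 11, 2 to 13, 0 to 3 and 0 to 5. Every other alternative left these counts within 1.5 times.

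The KO_RT columns carry no replicate number, so the replicate block could be fitted for cold in control rats (19 calls) and for genotype at 4 °C (0 calls) and not for the other comparisons. Deviations of same-numbered libraries correlated at -0.224 to 0.187 between the control groups and at -0.0734 to 0.216 between the 4 °C groups, and 1 of 7 and 3 of 7 correlated best with their own number, so the numbers were not taken to pair samples.

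Of the named genes' values under all alternatives, 10739 kept their side of the threshold, 188 lost a call, 122 gained one and 1 reversed. A change of sign was counted as a reversal only where the gene was called in the main fit or in the alternative. Sign changes of uncalled genes are among the 10739. CPM by library total moved the median gene by 0.16 in cold control and 0.09 in cold knockout rats, and 0 called members changed sign. Depth limits Ndufa12, Ndufs5, Cox4i2 and the untested Cycs, Ndufa4l2 and Cox6b2.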
